A study of Oryctolagus cuniculus with 6 samples.

Results

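The genes described here are 10 transcriptional targets of hypoxia-inducible factor (HIF) that are not enzymes or transporters of glycolysis: the secreted signals ADM and VEGFA, the surface enzyme CA9, the collagen-modifying enzyme P4HA1, the oxygen-dependent dioxygenases EGLN3 and KDM3A, and the intracellular proteins ANKRD37, NDRG1, DDIT4 and BNIP3. They were chosen by gene symbol, with earlier results of these data known, and all 10 have a row among the 29587 genes of the count table. The question put to them was whether the targets move together in rabbit tracheal mucosa under a compressing tube cuff, or whether a target such as ADM moves without one such as VEGFA. Polyadenylated RNA was sequenced from New Zealand rabbits aged 3 months. In the high cuff pressure group (n = 3 libraries) a tracheal tube of 3.0 mm was advanced 13 cm and its balloon kept at 35 cmH2O over 2 h. The other group is the control (n = 3 libraries), and the labels state neither whether its animals were intubated nor the interval between cuff and sampling. No genetic change or drug is named for either group. Libraries are called high 1 to 3 and control 1 to 3 after their group and replicate number. Values of 3 libraries are given in that order.

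HIF is a transcription factor made of an oxygen-regulated alpha subunit (HIF1A or EPAS1) and the constant partner ARNT. In oxygenated cells, prolyl hydroxylases of the EGLN family mark the alpha subunit for ubiquitination by the VHL complex and its destruction, while HIF1AN blocks its binding of coactivators. When oxygen is short the subunit persists and raises transcription of genes for blood supply, pH control, oxygen sensing, matrix and mitochondrial turnover, so that the RNA of the targets can change while the RNA of HIF1A itself does not. Many of these targets also answer to other signals: ADM and VEGFA to cytokines, and DDIT4 to cell stress and glucocorticoids.

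Of the 10 targets, 1 rose and none fell. ADM rose 8.40-fold with high cuff pressure (95% interval 3.36 to 21.0), while VEGFA stood at 0.934 of its control level (0.626 to 1.39). ADM was the only one of the 10 past an adjusted p of 0.05 in the higher direction, against 3.67% of all 13724 genes tested, and none passed in the lower direction, against 1.62% (edgeR quasi-likelihood test, Benjamini-Hochberg adjustment over all genes tested). At an unadjusted p under 0.05, ADM, CA9 and DDIT4 were higher and KDM3A was lower, where 15.6% and 13.6% of all genes were, or 29.3% in either direction. DESeq2 called ADM and CA9 higher and none lower, against backgrounds of 9.90% and 8.58%. In these counts CA9 is a gene that passed the filter on low counts through the high cuff pressure libraries alone. The fitted log2 fold change was positive in 7 targets and negative in 3, with a median of 0.24 beside -0.01 over all genes tested. With scaling by total counts these medians were -0.16 and -0.40.

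Library totals ran from 10501734 to 14415754 counts, so that 3 counts correspond to 0.193 to 0.353 CPM, the counts scaled to equal library size. All 10 targets passed the filter on low counts. CA9 did so through the high cuff pressure libraries alone, so its difference partly follows from the filter, while the other 9 reached the filter level in all 6 libraries. CPM values are normalised by the trimmed mean of M-values (TMM), whose factors were 0.810 to 0.917 in the high cuff pressure group and 1.03 to 1.21 in the controls. Without those factors the median log2 fold change of all genes shifts by -0.39, and the absolute level of each gene shifts with it. Correlations of log2 CPM between libraries were 0.949 to 0.960 among controls and 0.899 to 0.929 within the high cuff pressure group. High 1 stood nearest to the controls, at 0.8805 to 0.897, with 0.899 to 0.911 to its own group. The labels call the material epithelial, and general airway epithelial markers were present at a summed 1556 to 1799 CPM with high cuff pressure and 1102 to 1161 CPM in the controls, without overlap, yet markers of smooth muscle, fibroblasts, endothelium and leukocytes were present as well, so each value is that of a mixed tissue. In such a sample, fewer cells of a type and less RNA per cell cannot be told apart. Replicate libraries are separate by label only, so the p-values measure the spread between these samples, which may in part be technical.

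ADM encodes adrenomedullin, a peptide that widens vessels and tightens endothelial barriers. Its row, ENSOCUG00000009897, lies on chromosome 1 at 152086547 to 152094179, plus strand, with a gene model of 821 bases. ADM stood at 32.6, 19.3 and 22.9 CPM in high 1, 2 and 3, and at 5.81, 1.35 and 1.82 CPM in control 1, 2 and 3. Every high cuff pressure library was above every control, and control 1 was the highest of the controls. Raw reads were 331, 164 and 302 against 68, 21 and 25. The means were 24.9 ± 6.90 and 2.99 ± 2.45 CPM (SD, n = 3), a log2 fold change of 3.07 ± 0.57 with an edgeR adjusted p of 0.034. Here and below, ± after a log2 fold change is its standard error (SE). The call was lost in 4 of the 6 fits that each left out 1 library. Leaving out high 2 gave an edgeR adjusted p of 0.093, high 3 0.058, control 2 0.11 and control 3 0.14. Over the whole table those fits called 4, 302, 0 and 0 genes, against 725 with all 6 libraries. The adjusted p of ADM stayed under the threshold on omission of high 1 (0.026) or control 1 (0.030). In the latter fit its log2 fold change reached 3.98. Over these 6 fits the log2 fold change never fell below 2.71.

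VEGFA encodes vascular endothelial growth factor A, the main signal for new vessel growth. Its row, ENSOCUG00000011610, lies on chromosome 12 at 33200062 to 33213632, plus strand, with a gene model of 5092 bases. VEGFA stood at 92.3, 72.3 and 75.2 CPM in the high cuff pressure libraries and at 110.1, 81.9 and 64.6 CPM in the controls. The groups overlapped, and the highest and the lowest of the 6 libraries were both controls. The means were 79.9 ± 10.8 and 85.5 ± 22.9 CPM (SD, n = 3). The log2 fold change was -0.10 ± 0.25 (95% interval -0.67 to 0.48, edgeR adjusted p = 0.82), and its sign was not stable, at 0.13 without control 1. The value rests on 2542 reads with high cuff pressure and 3448 in the controls. The upper bound of its interval, 1.39-fold, is under the lower bound of 3.36-fold for ADM.

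**Figure D1:**
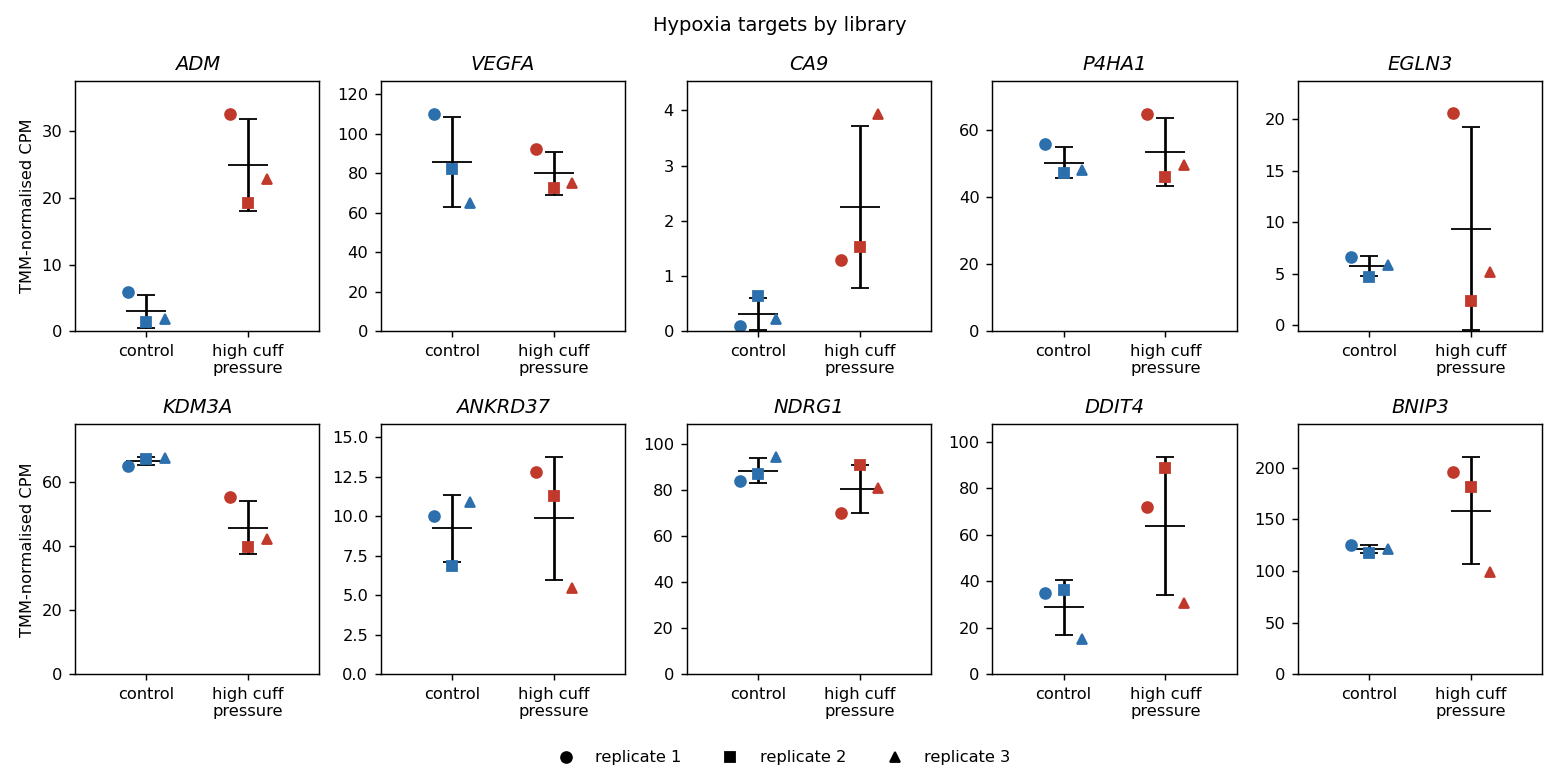
TMM-normalised CPM (vertical axes, linear) of the 10 targets in the control (blue) and high cuff pressure (red) libraries. Symbols are single libraries by replicate number, and the bar and whiskers are mean ± SD of 3 libraries. ADM and CA9 lie above the controls in all 3 libraries, KDM3A lies below them, and the other 7 overlap. Of all genes tested, 18.6% were separated upwards and 18.7% downwards.

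ADM and VEGFA were compared within each library, where scaling cancels. Per 100 VEGFA reads there were 35.4, 26.7 and 30.4 ADM reads with high cuff pressure and 5.28, 1.65 and 2.82 in the controls. The groups did not overlap. The log2 ratio of ADM to VEGFA averaged -1.71 ± 0.20 (SD, n = 3) with high cuff pressure and -5.10 ± 0.84 (SD, n = 3) in the controls, a difference of 3.40. The exact two-sided permutation test over libraries gave p = 0.10, which is the smallest value that 3 against 3 libraries can give. Because the targets were chosen with earlier results of these data known, this p-value is no independent support. The fitted log2 fold changes differed by 3.17, and by 2.84 to 3.84 when 1 library was left out in turn, the highest value being that without control 1. ADM has a short gene model and VEGFA a long one, and over all genes the fitted change moved with length: its median was 0.25 in genes under 1000 bases and -0.18 in genes over 5000 bases. Among genes within 1.2-fold of ADM's length the median was 0.17 (1006 genes), and for VEGFA's length it was -0.15 (1435 genes). With a smooth trend over length removed from each library the difference between ADM and VEGFA was 2.90 and ADM remained past the threshold.

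**Figure D2:**
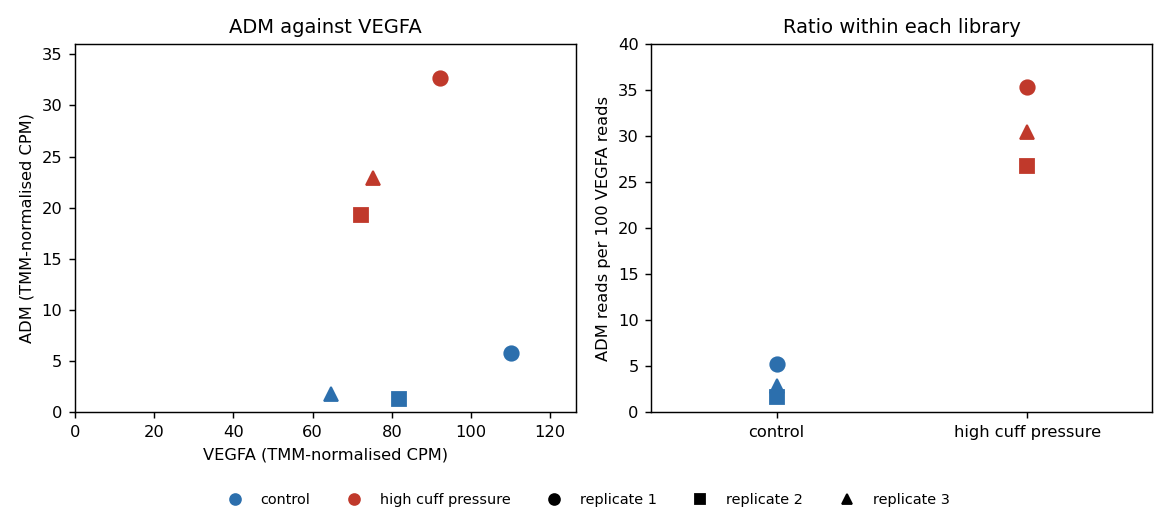
Left, ADM against VEGFA in each library (TMM-normalised CPM, linear axes). Right, ADM reads per 100 VEGFA reads in each library (linear axis). Colours mark the groups and symbols the replicate number. The high cuff pressure libraries hold 26.7 to 35.4 ADM reads per 100 VEGFA reads and the controls 1.65 to 5.28, while the VEGFA values of the groups overlap.

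CA9 encodes carbonic anhydrase 9, a surface enzyme that keeps hypoxic cells from acidifying and is used as a tissue marker of hypoxia. Its row, ENSOCUG00000010187, lies on chromosome 1 at 18251147 to 18256037, minus strand. CA9 stood at 1.28, 1.53 and 3.94 CPM in the high cuff pressure libraries and at 0.0855, 0.643 and 0.219 CPM in the controls. The groups did not overlap, and high 3 was well above the other two libraries of its group. These values rest on 13, 13 and 52 reads against 1, 10 and 3, so the transcript was rare in both groups. Its log2 fold change was 2.76 ± 0.76 (fold 6.75, 95% interval 2.01 to 22.7). CA9 did not pass the threshold (edgeR adjusted p = 0.069). It did pass in edgeR on omission of high 1, at an adjusted p of 0.040, where 9.68% of all genes were called higher, and with all libraries in DESeq2, at 0.015. In the other 5 fits with 1 library left out its edgeR adjusted p was 0.13 to 0.24, with log2 fold changes from 2.06 without high 3 to 3.78 without control 2. Of 4 markers of basal epithelial cells, none was called (edgeR), where 3.67% of all genes were higher and 1.62% lower. These markers summed to 475 to 2529 CPM against 193 to 415 CPM. The keratin KRT5 made up most of that sum and had the order of CA9 among the high cuff pressure libraries, at 387, 945 and 2374 CPM against 327, 259 and 124 CPM (edgeR log2 fold change 2.38, adjusted p = 0.073). TP63 and ITGA6 were instead lowest in high 2, and DLK2 was highest there. The part of these cells in the CA9 values was not tested.

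P4HA1 encodes a catalytic subunit of prolyl 4-hydroxylase, which stabilises the collagen triple helix. Its row, ENSOCUG00000009739, lies on chromosome 18 at 14358023 to 14437914, plus strand. P4HA1 stood at 65.0, 46.0 and 49.6 CPM with high cuff pressure and at 55.8, 47.2 and 48.0 CPM in the controls. The highest and the lowest library were both of the high cuff pressure group. Its log2 fold change was 0.09 ± 0.22 (fold 1.06, 95% interval 0.748 to 1.51, edgeR adjusted p = 0.82), and it was -0.29 with scaling by total counts.

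EGLN3 encodes a prolyl hydroxylase that acts on the HIF alpha subunit and is itself a HIF target, closing a feedback loop. Its row, ENSOCUG00000008560, lies on chromosome 17 at 53706800 to 53733263, minus strand. EGLN3 stood at 20.6, 2.35 and 5.15 CPM with high cuff pressure and at 6.67, 4.70 and 5.83 CPM in the controls. High 1 was above every control and high 2 below every control. The highest library exceeded the lowest 8.75-fold within the high cuff pressure group and 1.42-fold within the controls. The fit gave a log2 fold change of 0.71 ± 0.70 (95% interval -0.92 to 2.34, edgeR adjusted p = 0.53). It turned to -0.59 without high 1, so that its sign rests on that library.

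KDM3A encodes a lysine demethylase that removes methyl groups from histone H3 and uses oxygen to do so. Its row, ENSOCUG00000010324, lies on chromosome 2 at 99873682 to 99929317, minus strand. KDM3A stood at 55.4, 39.9 and 42.2 CPM with high cuff pressure and at 65.0, 67.2 and 67.5 CPM in the controls. All 3 high cuff pressure libraries were below all 3 controls, whose SD was 1.34 CPM. Of the 10 targets, 3 had groups that did not overlap (ADM and CA9 higher, KDM3A lower). Of all genes tested, 18.6% were separated upwards, 18.7% downwards and 37.3% in either direction. CA9 passed the count filter through the high cuff pressure libraries alone, so its separation partly follows from the filter and is no independent support. KDM3A's log2 fold change was -0.54 ± 0.21 (0.689 of the control level, 95% interval 0.491 to 0.965), and it did not pass the threshold (edgeR adjusted p = 0.14). With total counts as the scale its edgeR adjusted p was 0.044, but there 9.04% of all genes were called lower. Relative to the median of all genes its log2 fold change on that scale was -0.53.

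ANKRD37, an ankyrin repeat protein with strong HIF responsiveness in human cells, stood at 12.8, 11.3 and 5.45 CPM with high cuff pressure and at 9.999, 6.82 and 10.9 CPM in the controls. Its row, ENSOCUG00000012369, lies on chromosome 2 at 62850989 to 62853480, plus strand. High 1 and high 2 were above every control and high 3 was below every control. Its log2 fold change was 0.09 ± 0.39 (fold 1.07, 95% interval 0.570 to 1.99, edgeR adjusted p = 0.90), and its sign changed with scaling by total counts, where it was -0.31.

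NDRG1 encodes a stress-responsive cytoplasmic protein linked to differentiation and growth arrest. Its row, ENSOCUG00000016394, lies on chromosome 3 at 148947822 to 148991702, minus strand. NDRG1 stood at 70.2, 91.1 and 81.0 CPM with high cuff pressure and at 83.9, 86.9 and 94.5 CPM in the controls. The groups overlapped through high 2. The log2 fold change was -0.13 ± 0.20 (0.913 of control, 95% interval 0.667 to 1.25, edgeR adjusted p = 0.69).

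DDIT4 encodes REDD1, an inhibitor of the growth kinase complex mTORC1. Its row, ENSOCUG00000016772, lies on chromosome 18 at 15150000 to 15151297, minus strand. DDIT4 stood at 71.9, 88.7 and 30.9 CPM with high cuff pressure and at 35.2, 36.1 and 15.2 CPM in the controls. High 1 and high 2 were above every control, while high 3 lay between control 3 and control 1, so the groups overlapped. The fit gave a log2 fold change of 1.14 ± 0.46 (fold 2.21, 95% interval 1.06 to 4.63), and it did not pass the threshold (edgeR adjusted p = 0.15).

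BNIP3 encodes a mitochondrial receptor for the removal of mitochondria by autophagy. Its row, ENSOCUG00000002541, lies on scaffold GL019068 at 90716 to 95413, minus strand. BNIP3 stood at 195, 181 and 99.2 CPM with high cuff pressure and at 125, 117 and 122 CPM in the controls. High 1 and high 2 were above every control and high 3 was below every control. The fit gave a log2 fold change of 0.38 ± 0.28 (fold 1.305, 95% interval 0.834 to 2.04, edgeR adjusted p = 0.38), and it was -0.020 with scaling by total counts.

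**Figure D3:**
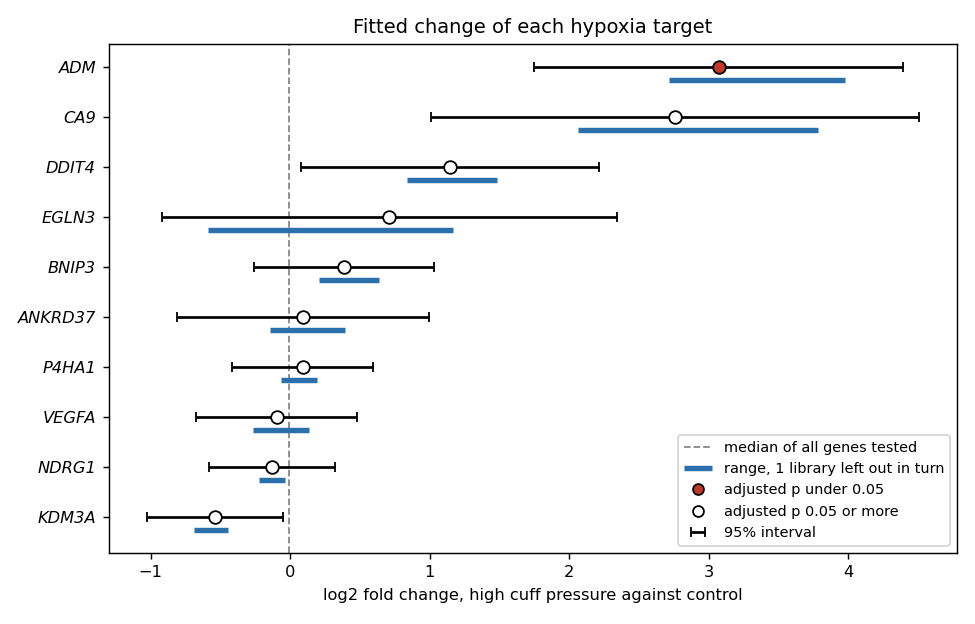
Fitted log2 fold change (horizontal axis) of each target, with its 95% interval in black and the range over 6 fits that each left out 1 library in blue. The filled point passed an adjusted p of 0.05 (edgeR). ADM, at 3.07, is the filled point, and the intervals of ADM, CA9 and DDIT4 lie above 0 and that of KDM3A below 0.

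The 3 high cuff pressure libraries did not share an order across the targets. High 1 was the highest of its group in 7 targets, high 2 in 2 and high 3 in 1, and high 2 was the lowest in 5. Relative to the control mean on a log2 scale, high 1 was raised by 3.65 in ADM, 1.83 in EGLN3, 1.76 in CA9 and 1.41 in DDIT4, and was within 0.69 of the control mean in the other 6. In high 2 the value for EGLN3 was -1.21 while that for ADM was 2.89 and that for DDIT4 was 1.72. In high 3 the values were 3.27 for CA9 and 3.14 for ADM, but -0.71 for ANKRD37, -0.29 for BNIP3 and 0.20 for DDIT4. Thus ADM and CA9 were above every control in each of the 3 libraries, ANKRD37, DDIT4 and BNIP3 in 2, P4HA1 and EGLN3 in 1, and VEGFA, KDM3A and NDRG1 in none. For CA9 this partly follows from the count filter. Of all genes tested, 18.6% had all 3 high cuff pressure libraries above every control.

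**Figure D4:**
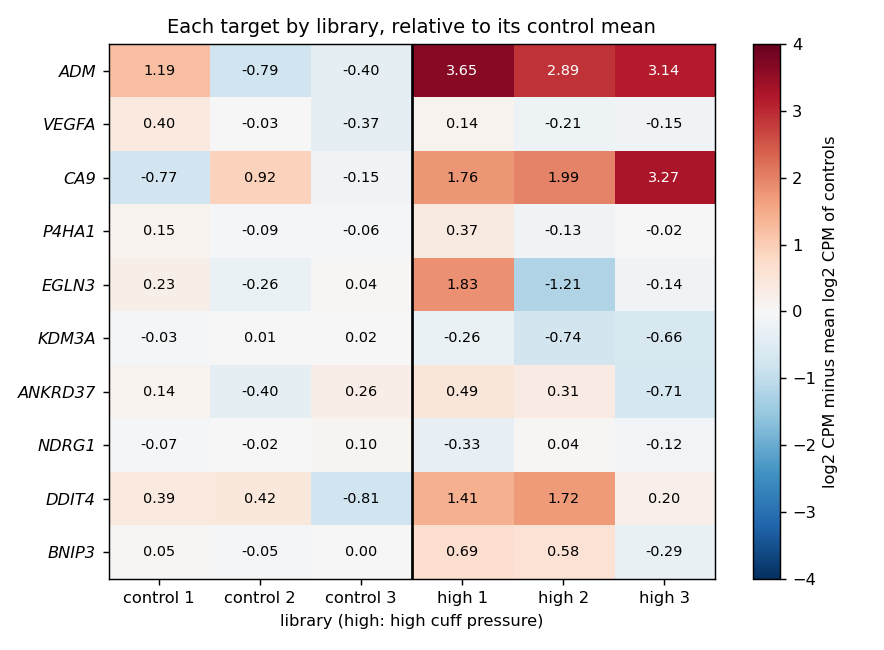
Log2 CPM of each target (rows) in each library (columns) minus the mean log2 CPM of the 3 controls. Red is above and blue below the control mean. ADM (2.89 to 3.65) and CA9 (1.76 to 3.27) are raised in all 3 high cuff pressure libraries, while EGLN3 runs from -1.21 to 1.83 over the same libraries.

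Levels were compared between genes per transcript length, as FPKM from the authors' table (fragments scaled to gene length and library total), which is not TMM-scaled. In the controls BNIP3 was the most abundant target at 127 ± 8.03 FPKM (SD, n = 3), clear of NDRG1 at 47.5 ± 6.47. From NDRG1 the order ran through DDIT4 (31.0 ± 12.4), P4HA1 (25.6 ± 0.102), ANKRD37 (22.1 ± 5.03), VEGFA (19.0 ± 3.54) and KDM3A (18.3 ± 1.96), and the libraries of each neighbouring pair overlapped. ADM followed at 3.99 ± 2.89, EGLN3 at 2.42 ± 0.267 and CA9 at 0.288 ± 0.275 FPKM. ADM and EGLN3 overlapped, whereas KDM3A was clear of ADM and EGLN3 of CA9. With high cuff pressure ADM reached 26.7 ± 8.29 FPKM and moved from rank 8 to rank 4 among the 10 targets, above VEGFA at 13.7 ± 2.36.

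The HIF machinery was measured through 11 tested genes. None passed the edgeR threshold in either direction. At an unadjusted p under 0.05, 2 were lower, where 13.6% of all genes were. DESeq2 called 1 lower, where 8.58% of all genes were. The median log2 fold change was -0.41, beside -0.01 for all genes tested. Of the 11 genes, 5 were separated downwards and none upwards, where 18.7% and 18.6% of all genes were. HIF1A stood at 95.1, 104 and 130 CPM with high cuff pressure and at 96.4, 112 and 99.9 CPM in the controls, which overlapped (edgeR log2 fold change 0.10 ± 0.21, adjusted p = 0.79; -0.30 with scaling by total counts). EPAS1, the alpha subunit abundant in endothelium, stood at 1201, 1562 and 1599 CPM against 1714, 4401 and 1758 CPM. All 3 high cuff pressure libraries were below the controls, and the log2 fold change was -0.85 ± 0.44 (edgeR adjusted p = 0.24), which was -0.26 without control 2, the library highest in EPAS1. For ARNT it was -0.72, for EGLN1 -0.41 and for HIF1AN -0.15, with edgeR adjusted p of 0.16, 0.43 and 0.75. CITED2, a HIF target that competes with HIF for the coactivator EP300, had the smallest p of the list. It stood at 4.73, 3.06 and 5.45 CPM against 10.7, 10.2 and 10.2 CPM, without overlap (edgeR log2 fold change -1.22 ± 0.32, adjusted p = 0.064; called lower by DESeq2). EP300 itself had a log2 fold change of -0.69 and EGLN2 one of 0.61, with edgeR adjusted p of 0.21 and 0.18. VHL was not analysed here.

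A further 28 tested HIF targets outside glycolysis were divided in direction. ANGPTL4 rose and INSIG2 fell (edgeR), so that 1 of 28 was called higher and 1 lower, where 3.67% and 1.62% of all genes were. The list held 14 positive and 14 negative changes with a median log2 fold change of 2.39e-05. DESeq2 called 6 higher and 5 lower, where 9.90% and 8.58% of all genes were. ANGPTL4, an inhibitor of lipoprotein lipase, stood at 9.86, 15.1 and 7.12 CPM against 4.10, 1.67 and 1.82 CPM, without overlap (edgeR log2 fold change 2.08 ± 0.48, adjusted p = 0.050, just under the threshold, and 0.0504 with relative log expression (RLE) scaling factors). INSIG2, which restrains sterol synthesis, stood at 10.2, 6.94 and 6.52 CPM against 19.6, 19.0 and 29.0 CPM (edgeR log2 fold change -1.52 ± 0.31, adjusted p = 0.040). All 3 high cuff pressure libraries were below the controls in INSIG2. PLOD1, a lysyl hydroxylase of collagen, missed the threshold (edgeR log2 fold change 0.86 ± 0.21, adjusted p = 0.053) and passed it without high 1, at 0.035. MXI1, an antagonist of MYC, stood at 13.3, 8.47 and 6.14 CPM against 18.9, 22.7 and 23.0 CPM. It also missed the threshold (edgeR log2 fold change -1.21 ± 0.33, adjusted p = 0.069), but passed on omission of high 1, at 0.020. Without high 1, 1362 of all 14064 genes tested were called higher and 1261 lower. INSIG2 and ANGPTL4 kept their calls in 1 of the 6 fits with 1 library left out, that without high 1, and their adjusted p rose to at most 0.18 and 0.20 in the other 5.

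The glycolytic HIF targets were read beside these as a reference. Of 16 tested, PKM, GAPDH and ENO1 rose and none fell in edgeR, where 3.67% and 1.62% of all genes did. At an unadjusted p under 0.05, 5 were higher and none lower, against 15.6% and 13.6% of all genes. DESeq2 called 4 higher and none lower, against 9.90% and 8.58%. Of these 16 changes, 14 were positive, with a median log2 fold change of 0.52 that was 0.13 with scaling by total counts. The log2 fold changes of PKM, GAPDH, ENO1 and TPI1 were 1.37, 1.45, 1.12 and 0.71, with edgeR adjusted p of 0.030, 0.034, 0.050 and 0.091. The first 3 kept their calls without high 1, and PKM also without high 3. In the other fits with 1 library left out their edgeR adjusted p ran from 0.053 to 0.21. ENO1 also missed the threshold with scaling by total counts (edgeR adjusted p = 0.091), with no filter on low counts (0.051) and in limma on log2(FPKM + 1) and log2(FPKM + 0.1), at 0.064 and 0.069. TPI1 passed without high 1, at 0.044, where 9.68% of all genes were called higher.

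**Figure D5:**
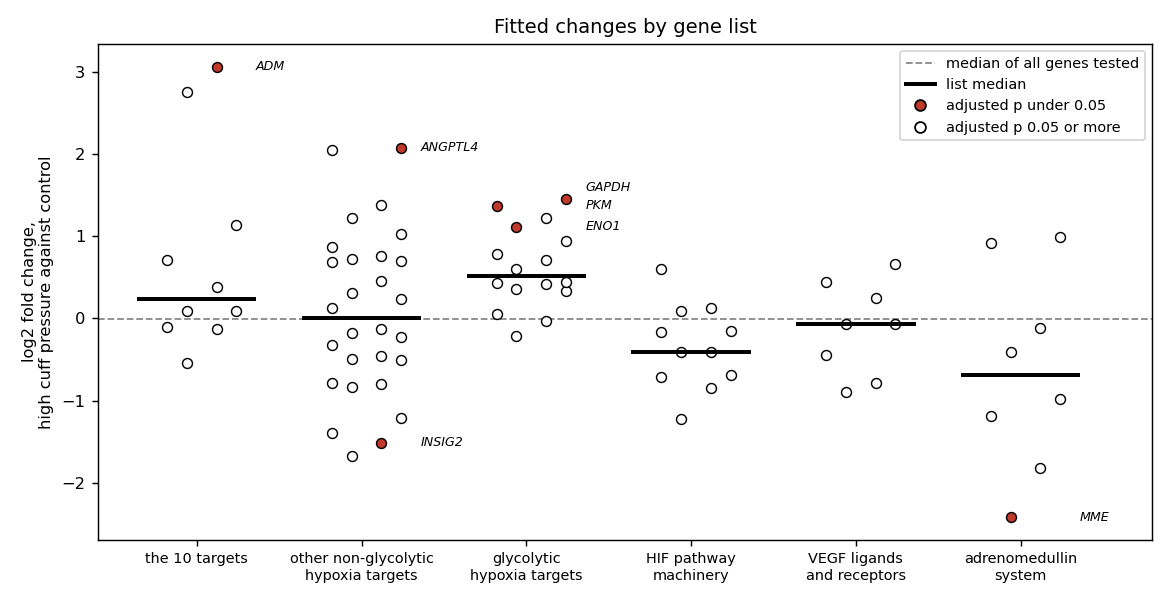
Fitted log2 fold change (vertical axis) of each tested gene in 6 lists, with the list median as a bar and the median of all genes tested as a dashed line. Filled points passed an adjusted p of 0.05 (edgeR) and are named. The medians run from -0.69 in the adrenomedullin system to 0.52 in the glycolytic targets, with the 10 targets at 0.24.

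The ADM transcript was set beside other genes of the adrenomedullin system. Of 8 tested genes of the adrenomedullin system other than ADM, 1 fell and none rose in edgeR, where 1.62% of all genes fell. At an unadjusted p under 0.05, 3 were lower and none higher, where 13.6% of all genes were lower. DESeq2 called 1 lower, where 8.58% of all genes were. The one that fell was MME, or neprilysin, a surface peptidase that degrades adrenomedullin among other peptides. MME stood at 1.87, 3.18 and 8.41 CPM with high cuff pressure and at 31.1, 20.5 and 21.6 CPM in the controls, without overlap (edgeR log2 fold change -2.42 ± 0.54, adjusted p = 0.047). It kept its call without high 1 or 3, and without each of the other 4 libraries its edgeR adjusted p was 0.11 to 0.15. CALCRL, the receptor core, stood at 11.3, 7.06 and 8.03 CPM against 23.0, 11.8 and 17.3 CPM. Its groups did not overlap, but it missed the threshold (edgeR log2 fold change -0.98 ± 0.34, adjusted p = 0.11). With scaling by total counts its edgeR adjusted p was 0.044, but there 9.04% of all genes were called lower. Of the 8 genes, 4 were separated downwards, where 18.7% of all genes were. RAMP2, which makes CALCRL an adrenomedullin receptor, stood at 23.7, 78.1 and 65.8 CPM against 42.5, 32.6 and 13.6 CPM, with overlap (edgeR log2 fold change 0.92, adjusted p = 0.28). The related peptide genes CALCA and CALCB had log2 fold changes of -1.19 and -1.82, with edgeR adjusted p of 0.17 and 0.19. RAMP3 was not analysed here.

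Of 8 tested VEGF ligands and receptors other than VEGFA, none passed the edgeR threshold and DESeq2 called none. At an unadjusted p under 0.05 none was higher and 1 was lower, where 13.6% of all genes were lower. That gene was FLT4, the lymphatic VEGF receptor, at 12.6, 18.7 and 26.1 CPM against 32.0, 46.3 and 29.2 CPM (edgeR log2 fold change -0.90, adjusted p = 0.12). For its ligand VEGFD the log2 fold change was -0.79 and for the co-receptor NRP2 it was 0.66. The receptors FLT1 and KDR had log2 fold changes of 0.44 ± 0.39 and -0.07 ± 0.39, and the co-receptor NRP1 one of 0.25. Their edgeR adjusted p were 0.47, 0.93 and 0.74.

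Close relatives of the targets were examined in the same way. Of 17 tested, none passed the edgeR threshold. At an unadjusted p under 0.05, 3 were higher and 4 lower, where 15.6% and 13.6% of all genes were. DESeq2 called 2 in each direction, against 9.90% of all genes higher and 8.58% lower. CA12, another surface carbonic anhydrase, stood at 90.2, 13.1 and 21.4 CPM against 12.05, 9.65 and 8.31 CPM, without overlap (edgeR log2 fold change 2.05, adjusted p = 0.099). Without high 1 its log2 fold change was 0.79. High 1 was high in CA12 and high 3 was high in CA9. BNIP3L, the relative of BNIP3, stood at 37.2, 27.9 and 24.7 CPM against 51.4, 46.3 and 57.2 CPM, below every control (edgeR log2 fold change -0.79 ± 0.24, adjusted p = 0.082). DDIT4L, the relative of DDIT4, stood at 8.87, 13.5 and 20.3 CPM against 7.01, 5.86 and 4.59 CPM, above every control (edgeR log2 fold change 1.29 ± 0.38, adjusted p = 0.078). JMJD1C, of the KDM3A family, had a log2 fold change of -1.24 with an edgeR adjusted p of 0.10. BNIP3L, DDIT4L and JMJD1C passed without high 1, with edgeR adjusted p of 0.032, 0.027 and 0.049. In that fit 1362 of all 14064 genes tested were called higher and 1261 lower.

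The genes most like ADM and VEGFA over the 6 libraries were sought among 10983 genes with a symbol and at least 1 CPM on average. Likeness was the root mean square difference of centred log2 CPM. ETV4, an ETS transcription factor, was nearest to ADM at 0.244, with 25.5, 23.5 and 25.7 CPM against 5.98, 1.03 and 1.60 CPM. SERPINA3 followed at 0.281 and TREML2 at 0.375. Like ADM, each of these genes had its highest control value in control 1, which partly follows from choosing them by their profile over the same libraries. For VEGFA the nearest were FRMD4A at 0.0952, ZBTB24 at 0.1001 and TYW5 at 0.103, and their log2 fold changes were -0.06, -0.03 and -0.11.

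Marker sums of some other cell types differed between the groups, while those of others overlapped. Over 9 neutrophil markers with a row, the summed level was 6825, 3619.8 and 1486 CPM with high cuff pressure and 75.2, 7.72 and 424 CPM in the controls, with the granule marker MMP8 at 0 in every library. Of 8 tested, 7 were higher (edgeR), where 3.67% of all genes were higher and 1.62% lower. Macrophage markers summed to 208 to 226 CPM against 62.5 to 128 CPM, with 4 of 10 higher (edgeR). The complement genes C1QA, C1QB and C1QC of the same list had log2 fold changes of -1.05, -0.93 and -0.80 and were not called (edgeR). CXCR1, FPR1, MMP9, MARCO and MSR1 passed the filter on low counts through the high cuff pressure libraries alone, so their differences partly follow from the filter. ADM separates the groups in the same direction as the neutrophil and macrophage sums, and also as the sums of general airway and basal epithelial markers. Among the controls the neutrophil sum was highest in control 3, where ADM stood at 1.82 CPM. ADM was highest in control 1, at 5.81 CPM. Endothelial markers summed to 496 to 1095 CPM against 263 to 728 CPM, with overlap. Smooth muscle markers summed to 417, 3553 and 6245 CPM against 4835 to 8015 CPM, also with overlap, and none of 5 was called (edgeR). Of 5 general airway epithelial markers, whose sums are given above, the tight junction gene CLDN7 was higher (edgeR). Multiciliated cell markers summed to 670 to 1797 CPM against 2077 to 3173 CPM, without overlap, and none of 7 was called. Fibroblast markers summed to 267 to 1478 CPM against 1162 to 2067 CPM, with overlap, and OGN and LUM of 7 were lower (edgeR). The part of cell makeup in the values of the 10 targets was not tested.

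The authors' deposited table gives mean FPKM of 26.7 and 3.99 for ADM with a q-value of 6.49e-06, and of 1.53 and 0.288 for CA9 with a q-value of 0.011. In the authors' deposited table the q-value of DDIT4 is 0.093, that of KDM3A 0.32 and that of VEGFA 0.93. Of the 10 targets, 5 are annotated there to the term response to hypoxia (VEGFA, EGLN3, NDRG1, DDIT4 and BNIP3), and neither ADM nor CA9 is among them. In the authors' deposited table of enriched terms, response to hypoxia holds 11 called genes of 119, 3 of them higher and 8 lower, with a rich factor of 1.29 and a q-value of 1. The HIF-1 signaling pathway holds 12 called genes of 73 in the authors' deposited table, 8 higher and 4 lower and none of the 10 targets, with a rich factor of 2.22 and a q-value of 0.14. The authors' deposited table lists 37 called genes of 273 for angiogenesis, ADM included, with a rich factor of 1.90 and a q-value of 0.017.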

How the data were processed

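The labels' protocols describe RNA of tracheal mucosa in 6 libraries (3 high cuff pressure, 3 control), read on the DNBSEQ-T7 instrument in a single batch. HISAT2 2.0.4, StringTie 1.3.3b and edgeR appear in the submitters' processing notes with no role. Genome build, annotation and strand setting are not given in the sources used, so coordinates are those of the deposited table and genes that overlap on opposite strands may share reads. Each gene of the deposited table has its raw count and the authors' FPKM value for every library, per the file headers. The authors' deposited tables also give p-values, q-values and a rich factor, a ratio of shares. Control replicate 3 has a title numbered 4.

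Counts were tested with edgeR 4.0.16 in R 4.3.3: filterByExpr on group, TMM, glmQLFit with robust estimation, glmQLFTest and Benjamini-Hochberg adjustment over 13724 genes, with a threshold of 0.05. SE is the log2 fold change over the square root of F. Model lengths were derived from counts and FPKM. Scripts were tested on simulated data. Intervals of fold changes are those of the edgeR fit, and the floor of 3 counts covers counting error only. Some lists share genes (BNIP3L, CA12, P4HA2, EGLN1, EGLN2, VLDLR and KDR). Genes named are the 10 targets, the up to 4 genes with the smallest p of each of 8 pathway lists, fixed HIF and receptor genes, and the 3 genes most like ADM and VEGFA. Targets and lists were chosen with earlier results of these data known. Other settings tried were RLE factors, DESeq2 1.42.0, total counts, no filter, 1 CPM in 3 libraries, limma-voom (limma 3.58.1), no robust estimation, a replicate block, limma-trend on log2(FPKM + 1) and log2(FPKM + 0.1), each library left out, and, added after seeing the data, a length trend removed (lowess span 0.5). The reference gene table shares no identifier with the files, and no sequences were used here. A further item of the lists is not reported here.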

Additional observations from a re-analysis of the deposited data

How the results depend on the processing

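Of the 17 alternatives, 8 left the number of targets past the threshold at 1. It was 2 with DESeq2 (ADM and CA9), total counts, log2(FPKM + 1) and log2(FPKM + 0.1) (ADM and KDM3A in each of the last 3), and 0 to 2 with 1 library left out. Genes called over the whole table numbered 725 in the main test, 2611 with DESeq2, 1630 with total counts, 2182 with log2(FPKM + 1), 1851 with log2(FPKM + 0.1) and 0 to 2623 with 1 library left out. The count was 2623 without high 1, 4 without high 2 and 302 without high 3, and 76 without control 1. It was 0 in edgeR without control 2 or 3, where 2691 and 2496 genes had an unadjusted p under 0.05. Calls split into 503 higher and 222 lower in the main test, 389 and 1241 with total counts, 434 and 1748 with log2(FPKM + 1), and 403 and 1448 with log2(FPKM + 0.1). The difference between ADM and VEGFA stayed between 2.84 and 3.84 with 1 library left out and between 2.90 and 3.43 otherwise.

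ADM was past the threshold in the 11 alternatives that kept all 6 libraries. CA9 gave no value on the FPKM scales, where it failed the filter of 1 FPKM in 3 libraries. The replicate numbers did not pair the libraries: same-numbered libraries deviated from their group means with correlations of -0.28, -0.20 and -0.23. With the replicate block, 244 genes were called and ADM was the only target among them (log2 fold change 3.30, edgeR adjusted p = 0.011); KDR changed sign there, at 0.055. The adjusted p with the block was 0.11 for INSIG2, 0.093 for ANGPTL4, 0.057 for MME, 0.12 for PKM, 0.12 for GAPDH and 0.17 for ENO1, above the threshold, and 0.039 for MT2A.

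Signs changed as follows, always among genes that passed in neither setting. With total counts the log2 fold change was -0.29 for P4HA1, -0.31 for ANKRD37, -0.020 for BNIP3, -0.30 for HIF1A, -0.11 for NRP1 and -0.0090 for ASNS. With log2(FPKM + 1) it was -0.30 for P4HA1, -0.038 for EGLN3, -0.34 for ANKRD37, -0.069 for BNIP3, -0.30 for HIF1A, -0.26 for NRP1 and -0.0024 for ASNS. With log2(FPKM + 0.1) these 7 were at -0.32, -0.20, -0.36, -0.070, -0.31, -0.29 and -0.0022. KDR was at 0.072 with limma-voom. With the length trend removed, VEGFA was at 0.070, ANKRD37 at -0.14, HIF1AN at 0.0036 and KDR at 0.062. With 1 library left out the ranges were -0.069 to 0.19 for P4HA1, -0.59 to 1.17 for EGLN3, -0.14 to 0.39 for ANKRD37, -0.27 to 0.13 for VEGFA, -0.045 to 0.19 for HIF1A, -0.32 to 0.060 for HIF1AN, -0.36 to 0.41 for KDR, -0.41 to 0.56 for NRP1, -0.24 to 1.02 for NRP2 and -1.82 to 0.30 for ATF3. The cause of these changes was not tested, and fits with 5 libraries have fewer samples by construction. CA9, with 14 control reads in all, is the target whose value depth limits.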

Other observations

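Genes of other stress programmes that share targets with HIF were read as values. Of 9 tested genes of the integrated stress response, none passed the edgeR threshold and DESeq2 called none. At an unadjusted p under 0.05, 1 was higher, where 15.6% of all genes were. The median log2 fold change of the list was -0.06. CEBPB, a transcription factor of inflammation, had the smallest p of that list (log2 fold change 1.08, edgeR adjusted p = 0.13), and for ASNS and PPP1R15A the log2 fold changes were 0.39 and 0.49. ATF3, a stress transcription factor, stood at 33.9, 23.4 and 31.0 CPM with high cuff pressure and at 178, 30.1 and 18.2 CPM in the controls. Control 1, which also had the highest ADM and VEGFA of the controls, was alone high in ATF3. DUSP1, an immediate early phosphatase chosen after its values were seen, stood at 901 CPM in that library and at 86.7 to 283 CPM in the other 5.

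Glucocorticoids also raise DDIT4 in other tissues. Of 9 tested glucocorticoid-responsive genes none passed the edgeR threshold, and their median log2 fold change was -0.31. At an unadjusted p under 0.05, 1 was higher and 3 lower, where 15.6% and 13.6% of all genes were. DESeq2 called 1 higher and 2 lower, where 9.90% and 8.58% of all genes were. MT2A, a metallothionein, stood at 104, 216 and 103 CPM against 46.0, 16.3 and 9.55 CPM, above every control (edgeR log2 fold change 2.56 ± 0.60, adjusted p = 0.052). MT2A passed in 11 of the 17 alternatives. Among these were DESeq2 (adjusted p = 0.00027) and edgeR with total counts (0.040), without control 1 (0.045) and without high 1 (0.033). Without high 1, 9.68% of all genes were called higher. KLF9, ZBTB16 and PER1 had log2 fold changes of -1.16, -1.66 and -0.60. None of the 3 passed the edgeR threshold in the main test. With scaling by total counts the edgeR adjusted p was 0.042 for KLF9 and 0.044 for PER1, but there 9.04% of all genes were called lower.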
